A study of Homo sapiens with 2 samples.

Results

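The mitochondrial protein import machinery was examined in the RNA bound to beads carrying an IMP1 antibody or normal IgG. Its genes were taken by name from the deposited table, as every gene called TOMM, TIMM or CHCHD followed by a number, together with TIMMDC1. This gave 36 records of 35 gene names among 18781 genes, because TIMM10B is listed under 2 identifiers. The family was selected on the ratio of TOMM7, which was among the highest of these same libraries, so every difference between the precipitates is given as a description. Both libraries came from T47D, a luminal breast cancer line with the genotype given as WT, grown in DMEM with serum. Lysate was incubated with protein A beads that carried either the antibody against IMP1, an RNA-binding protein, or control IgG, and the RNA left on the washed beads was sequenced. Each precipitate was sequenced as 1 library, so that no value has a replicate error and no test between the precipitates could be run.

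Most mitochondrial proteins are made in the cytosol from nuclear genes and enter the organelle through the TOM complex of the outer membrane. Proteins with a cleavable presequence then pass through the TIM23 complex of the inner membrane, carrier proteins are inserted by the TIM22 complex, and the small TIM chaperones escort hydrophobic proteins across the intermembrane space. CHCHD4 oxidises incoming cysteine-rich proteins in that space, and other CHCHD proteins carry the same type of cysteine motif and reside there. The levels below are those of the mRNAs of these proteins, in FPKM, a unit scaled by transcript length and by library size, so that levels of different genes can be set side by side within a library. Differences are log2 ratios of FPKM + 0.1, IMP1 antibody over IgG, on which changes of low genes come out too small.

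Of the 36 records, 15 were at least 2-fold higher with the IMP1 antibody and 12 at least 2-fold lower. This is 41.7% of them higher against 39.9% of all genes, and 33.3% lower against 29.9% of all genes. The 15 hold 10 records listed at exactly 0 with IgG and only 5 above 0 in both libraries, namely TOMM7, TIMM17B, TOMM6, TIMM10 and TOMM40L. In all, 11 records were listed at 0 with IgG, or 30.6% of them, against 38.7% of all genes. TIMM9P1 was the 1 record listed at 0 with the IMP1 antibody, where 6.40% of all genes were at 0. Where both libraries gave at least 1 FPKM, 3 of 22 import records were at least 2-fold higher and 11 were at least 2-fold lower. The shares among all 6909 genes at 1 FPKM or more in both were 11.5% higher and 44.0% lower. The counts of the family thus lay near the background in each direction, and its share past 2-fold in either direction, 75.0%, was near the 69.7% of all genes.

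The scale of the libraries moves these counts. The median log2 ratio of the genes at 1 FPKM or more in both libraries was -0.78, and 15 higher against 12 lower became 18 against 4 once the IMP1 values were rescaled to bring that median ratio to 1. Over all genes the share of higher genes among those past 2-fold went from 57.2% to 69.9% with this rescaling, and in the import family from 55.6% to 81.8%. Rescaling to the FPKM sum without the 50 highest genes gave 18 against 6, or 75.0%, with 66.4% over all genes. Requiring a value above 0 in both libraries gave 5 higher and 11 lower, so that 31.2% of those past 2-fold were higher, near the 28.6% over all genes under the same filter. Percentiles within a library and ratios of import genes within a library do not depend on this scale, and they are given below beside the differences. Percentiles do count the genes at 0, which were 6.40% with the IMP1 antibody and 38.7% with IgG.

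The libraries also differed outside this family. The IMP1 library had 17579 genes above 0 and the IgG library 11511, and mitochondrially encoded RNA made up 48.4% and 59.9% of the FPKM sums. All 12 markers of luminal breast epithelium were listed, with summed levels of 1266 FPKM for the IMP1 antibody and 579 FPKM for IgG, and all except TFF1, at 0 with IgG, were above 0 in both. All 13 mesenchymal markers listed, such as COL1A1, LUM, DCN and VIM, were at least 2-fold lower with the IMP1 antibody, with summed levels of 1.62 and 170 FPKM, and 6 of them were at 0 in the IMP1 library. In a further check for mixed-up samples, 1 library did not match its group's labels. Both libraries are labelled T47D, 1 luminal line, so no mix of cell types belongs to the design. Whether RNA of other cells entered the IgG library, the denominator of every ratio, was not tested. The part of such RNA in the levels of the import genes was not tested either. The import records added up to 611 FPKM with the IMP1 antibody and 778 FPKM with IgG, which is 0.334% and 0.149% of the FPKM outside the mitochondrial genome. Those FPKM sums were themselves 182564 and 521180, so the shares depend on them. Without the 50 highest genes of each library, the IgG sum was higher than the IMP1 sum by a log2 of 0.57. The part of the highest genes in the shares was not tested.

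**Figure D1:**
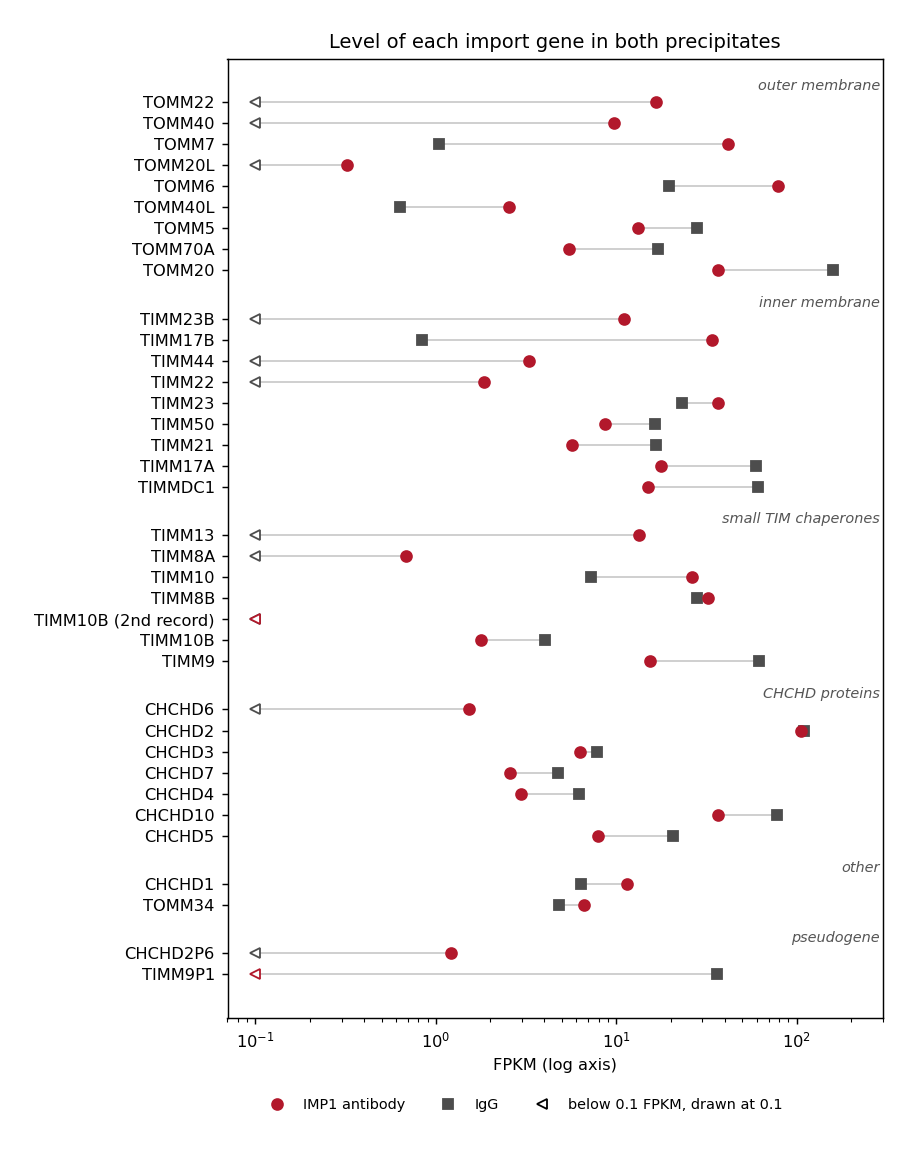
Level of each import record in FPKM on a log axis, with circles for the IMP1 antibody library, squares for the IgG library and open triangles for values below 0.1 FPKM. CHCHD2 lay at 105 and 110 FPKM, while TOMM7 went from 41.7 FPKM with the IMP1 antibody to 1.04 FPKM with IgG.

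Among the outer-membrane genes, TOMM7 had the largest difference of those above 0 in both libraries. TOMM7 is a small subunit that modulates the assembly of the TOM complex and stabilises PINK1 at the surface of damaged mitochondria. Its mRNA (ENSG00000196683, hg19 chromosome 7, 22852251 to 22862470) was at 41.7 FPKM with the IMP1 antibody and at 1.04 FPKM with IgG, or a log2 ratio of 5.20. This placed it at the percentile 97.3 of all genes in the IMP1 library and at the percentile 53.8 in the IgG library. With IgG 38.7% of all genes were at 0, and the values above 0.001 FPKM had a median of 4.84 FPKM, above that of TOMM7. Among the genes at 1 FPKM or more in both it ranked 3 by ratio. Its IgG level stood just inside that limit of 1 FPKM. Of the 417 genes within 1.5-fold of its level in the IMP1 library, 18 had a ratio as high or higher, itself included, and the median log2 ratio of the 417 was 0.20. The family was selected on this ratio, so its rank and this count follow from the selection and are no test. The IgG value of TOMM7 is a low level in a library where the lowest 5% of values above 0.001 FPKM ended at 0.147 FPKM. How many reads stand behind this value is unknown.

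The other small subunits of the TOM complex did not share the ratio of TOMM7. TOMM6 had 78.8 FPKM with the IMP1 antibody and 19.7 FPKM with IgG, or a log2 ratio of 1.996. TOMM5 had 13.2 and 27.9 FPKM, a log2 ratio of -1.07. Within a library TOMM6 was 1.89 times TOMM7 in the IMP1 precipitate and 19.0 times TOMM7 in the IgG precipitate, and TOMM5 was 0.317 and 26.9 times TOMM7. So the order from high to low was TOMM6, TOMM7, TOMM5 with the IMP1 antibody and TOMM5, TOMM6, TOMM7 with IgG. The place of TOMM7 in this order follows in part from the selection on its ratio.

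The receptors of the outer membrane went in opposite directions. TOMM20, the receptor for presequences, was the highest import mRNA of the IgG library with 158 FPKM, and had 36.5 FPKM with the IMP1 antibody, a log2 ratio of -2.11. It stayed high in both libraries, at the percentiles 96.8 and 98.9. TOMM70A, the receptor for carrier proteins and for chaperone-bound precursors, had 5.46 and 17.1 FPKM, a log2 ratio of -1.63. TOMM22, the central receptor that docks with the pore, had 16.6 FPKM with the IMP1 antibody and was listed at 0 with IgG. TOMM20 was thus 2.20 times TOMM22 in the IMP1 precipitate, whereas with IgG only TOMM20 was above 0. The ratio of TOMM20 to TOMM7 was 0.876 with the IMP1 antibody and 153 with IgG. Ratios to TOMM7, here and above, hold its low IgG value of 1.04 FPKM and follow in part from the selection.

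The pore itself showed the same kind of gap. TOMM40, the channel through which nearly all precursors pass, had 9.75 FPKM with the IMP1 antibody and was listed at 0 with IgG. Its paralog TOMM40L was low in both, with 2.55 and 0.636 FPKM. TOMM20L, a relative of TOMM20, had 0.321 FPKM with the IMP1 antibody and was listed at 0 with IgG. Over the 9 outer-membrane records the levels ran from 0.321 to 78.8 FPKM with a median of 13.2 FPKM for the IMP1 antibody, and from 0 to 158 FPKM with a median of 1.04 FPKM for IgG. Their summed levels were closer to each other, with 205 and 225 FPKM. In this compartment 6 of 9 were at least 2-fold higher and 3 at least 2-fold lower, and none lay between. Over all genes 39.9% were higher and 29.9% lower, and 3 of the 6 were listed at 0 with IgG. The median log2 ratio was 1.996 over the 9 and 0.39 over the 6 above 0 in both, against 0.40 and -0.72 over all genes.

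Zero values with IgG are frequent, and how frequent depends on the level in the IMP1 library. Among the 1130 genes within 1.5-fold of the IMP1 level of TOMM22, 6.81% were listed at 0 with IgG. The share was 7.71% at the level of TIMM13, 9.44% at that of TIMM23B and 10.2% at that of TOMM40. At the lower levels of TIMM44, TIMM22 and CHCHD6 it was 23.2%, 32.8% and 35.0%. The members listed at 0 with IgG and below 1 FPKM with the IMP1 antibody, TOMM20L, TIMM8A and the second record of TIMM10B, were not compared in this way. No fold is given for a gene listed at 0.

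**Figure D2:**
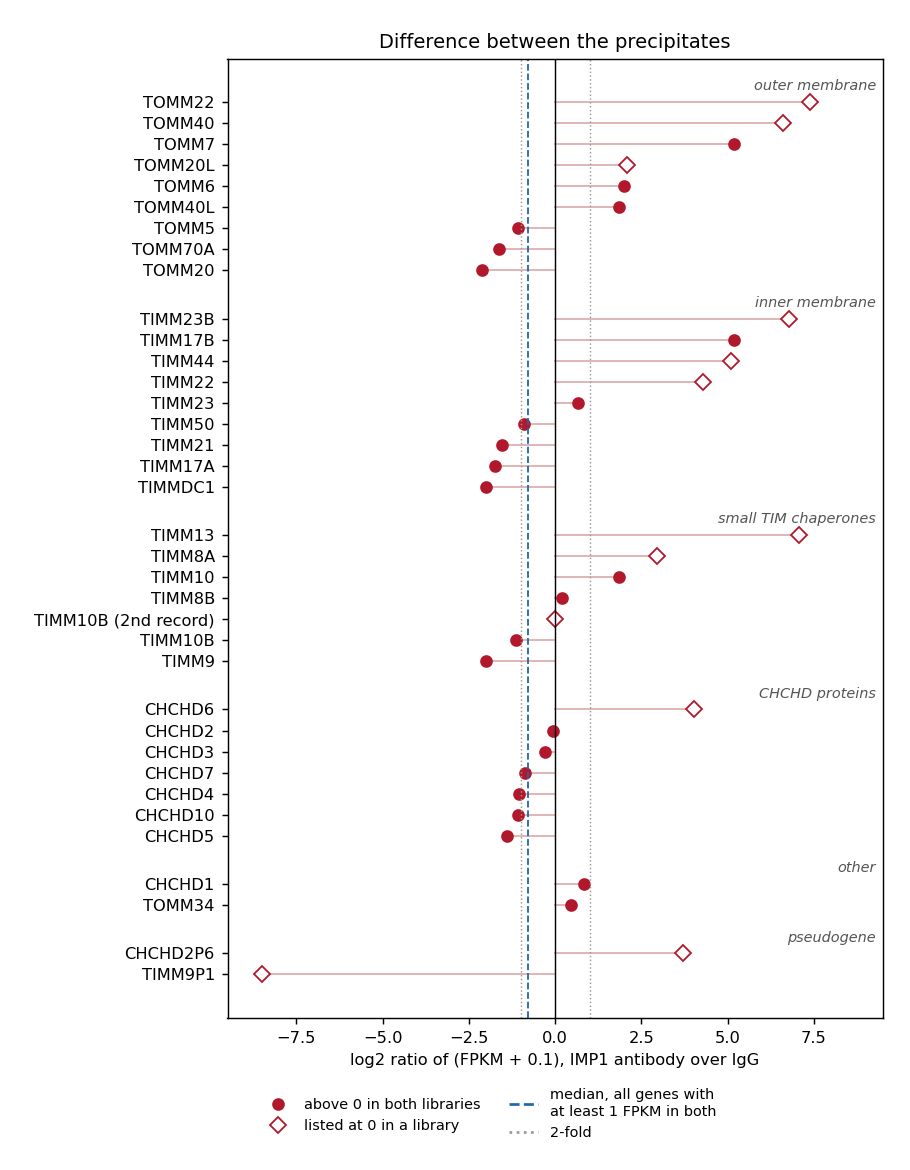
Log2 ratio of FPKM + 0.1 between the libraries for each import record, with open diamonds for records listed at 0 in a library, dotted lines at 2-fold and a dashed line at -0.78, the median of the genes at 1 FPKM or more in both. Records of the outer membrane, the inner membrane and the small TIM chaperones lie on either side of 0. Among the CHCHD proteins only CHCHD6, an open diamond, lies above 0. The position of an open diamond depends on the pseudocount.

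In the inner membrane the paralogs TIMM17A and TIMM17B, both above 0 in both libraries, lay on opposite sides. Each can take the place of the other beside TIMM23 in the translocase of presequence proteins. TIMM17A (ENSG00000134375, hg19 chromosome 1, 201924619 to 201939789) had 17.6 FPKM with the IMP1 antibody and 59.5 FPKM with IgG, or a log2 ratio of -1.75. TIMM17B (ENSG00000126768, hg19 chromosome X, 48750730 to 48760420) had 33.8 FPKM with the IMP1 antibody and 0.836 FPKM with IgG, or a log2 ratio of 5.18. TIMM17B made up 65.7% of the sum of both paralogs in the IMP1 precipitate and 1.39% in the IgG precipitate, a comparison that a common scale factor leaves as it is. The sum itself was 51.5 and 60.3 FPKM. TIMM17B and TOMM7 had nearly the same ratio, and with IgG TIMM17B lay just below 1 FPKM and TOMM7 just above it. Among the 10309 genes above 0 in both libraries they ranked 33 and 32 by ratio, and the ratio of TOMM7 was the ground of the selection. The position given for TIMM17B also holds PQBP1, which had 14.4 FPKM and 5.20 FPKM.

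TIMM23 forms the channel of that translocase. It had 36.6 FPKM with the IMP1 antibody and 23.3 FPKM with IgG, or a log2 ratio of 0.65. TIMM23B, a close copy of TIMM23 on the same chromosome, had 11.0 FPKM and was listed at 0 with IgG. Reads of these copies may be divided between them, so the values of each are uncertain, and their sum was 47.6 and 23.3 FPKM, a log2 ratio of 1.03.

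The partners of the channel had their own levels. TIMM50, the receptor that receives presequences from the TOM complex, had 8.69 and 16.4 FPKM, a log2 ratio of -0.90. TIMM21, which links the translocase to the TOM complex and to respiratory chain assembly, had 5.70 and 16.6 FPKM, a log2 ratio of -1.53. TIMM44, which anchors the import motor on the matrix side, had 3.30 FPKM with the IMP1 antibody and was listed at 0 with IgG. TIMM23 was 4.21 times TIMM50 in the IMP1 precipitate and 1.42 times TIMM50 in the IgG precipitate.

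TIMM22, the channel for carrier proteins, was low, with 1.84 FPKM with the IMP1 antibody and 0 with IgG. TIMMDC1, named for its TIM domain and known as an assembly factor of respiratory complex I, had 15.0 and 61.1 FPKM, a log2 ratio of -2.01. Of the 9 inner-membrane records, 4 were at least 2-fold higher, 3 at least 2-fold lower and 2 between. These are 44.4% higher and 33.3% lower, against 39.9% and 29.9% of all genes. The median level of the 9 was 11.0 FPKM with the IMP1 antibody and 16.4 FPKM with IgG, and their summed levels were 134 and 178 FPKM. The median log2 ratio was 0.65 over the 9 and -1.22 over the 6 above 0 in both, so its direction depended on the genes listed at 0. The median of all genes also turned with this filter, from 0.40 to -0.72.

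**Figure D3:**
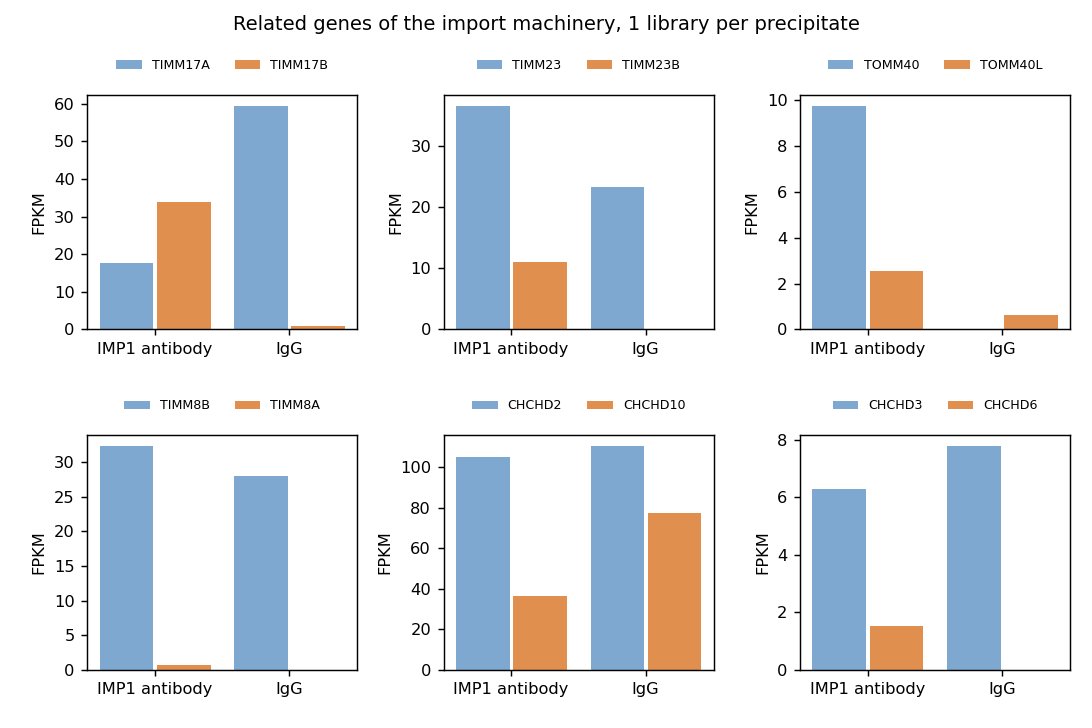
FPKM of 6 pairs of related import genes in each precipitate, with bars from 0 and 1 library per bar. TIMM17B is the higher of its pair with the IMP1 antibody (33.8 against 17.6 FPKM) and the lower with IgG (0.836 against 59.5 FPKM).

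The small TIM chaperones of the intermembrane space work as ring-shaped hexamers, in which TIMM9 pairs with TIMM10 and TIMM8A with TIMM13. TIMM9 had 15.4 FPKM with the IMP1 antibody and 61.9 FPKM with IgG, or a log2 ratio of -2.00. TIMM10 had 26.4 and 7.20 FPKM, a log2 ratio of 1.86. TIMM9 was thus 0.583 times its partner TIMM10 in the IMP1 precipitate and 8.59 times TIMM10 in the IgG precipitate. The pseudogene TIMM9P1 had 36.1 FPKM with IgG and was listed at 0 with the IMP1 antibody, and reads of TIMM9 and its pseudogene could be exchanged, which leaves both values uncertain. Their sum was 15.4 FPKM with the IMP1 antibody and 98.0 FPKM with IgG.

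TIMM13 had 13.4 FPKM and TIMM8A 0.683 FPKM with the IMP1 antibody, and both were listed at 0 with IgG. TIMM8A is the gene of deafness-dystonia syndrome. TIMM8B, its paralog, had 32.3 and 28.0 FPKM, a log2 ratio of 0.20. TIMM10B, which ties the chaperones to the TIM22 complex, had 1.78 and 4.01 FPKM in its first record (ENSG00000132286), a log2 ratio of -1.13. Its second record (ENSG00000265264) at the same position had 4.75e-05 FPKM with the IMP1 antibody and 0 with IgG, and is in effect unmeasured. Of the 7 chaperone records 3 were at least 2-fold higher and 2 at least 2-fold lower, with a median log2 ratio of 0.20, or -0.46 over the 4 above 0 in both. Of all genes 39.9% were higher and 29.9% lower, with medians of 0.40 and, above 0 in both, -0.72.

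Of the 7 CHCHD genes of the intermembrane space, 6 were above 0 in both libraries, and these had log2 ratios from -1.38 to -0.07. CHCHD2, a cysteine-motif protein mutated in familial Parkinson disease, was the highest import mRNA of the IMP1 library with 105 FPKM, and it had 110 FPKM with IgG, or a log2 ratio of -0.07. It lay at the percentiles 98.8 and 98.5. Its paralog CHCHD10, mutated in motor neuron disease and frontotemporal dementia, had 36.4 and 77.4 FPKM, a log2 ratio of -1.09. CHCHD2 was 2.89 times CHCHD10 with the IMP1 antibody and 1.43 times CHCHD10 with IgG.

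The oxidoreductase CHCHD4 had 2.95 and 6.19 FPKM, a log2 ratio of -1.04. CHCHD5 had 7.91 and 20.8 FPKM, a log2 ratio of -1.38, and CHCHD7 had 2.57 and 4.76 FPKM, a log2 ratio of -0.86. CHCHD3, a subunit of the MICOS complex that shapes crista junctions, had 6.31 and 7.78 FPKM, a log2 ratio of -0.30. CHCHD6, its partner in MICOS, had 1.52 FPKM with the IMP1 antibody and was listed at 0 with IgG, as the exception in direction. The median log2 ratio of the 7 was -0.86, against 0.40 over all genes. Over the 6 without CHCHD6, all at 1 FPKM or more in both libraries, it was -0.95. Over all genes at 1 FPKM or more in both, the median was -0.78. After rescaling to that median, CHCHD2 and CHCHD3 turned to 0.72 and 0.49.

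Over all 14 records of the intermembrane space, 4 were at least 2-fold higher and 5 at least 2-fold lower, with a median log2 ratio of -0.19. These are 28.6% higher and 35.7% lower, against 39.9% and 29.9% of all genes, whose median was 0.40. The levels of the 14 had a median of 7.11 FPKM with the IMP1 antibody and 6.70 FPKM with IgG, and their summed levels were 253 and 329 FPKM. By the median log2 ratio the order was outer membrane, inner membrane and intermembrane space, and with genes above 0 in both libraries it was outer membrane, intermembrane space and inner membrane. With 1 library a precipitate and 9 to 14 records a compartment, whether the compartments differ was not tested.

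The remaining members lie outside these compartments. TOMM34, a cochaperone in the cytosol, had 6.60 and 4.79 FPKM, a log2 ratio of 0.45. CHCHD1, a protein of the mitochondrial ribosome, had 11.5 and 6.41 FPKM, a log2 ratio of 0.83. The pseudogene CHCHD2P6 had 1.21 FPKM with the IMP1 antibody and was listed at 0 with IgG, where 38.9% of the genes near its IMP1 level were also at 0.

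**Figure D4:**
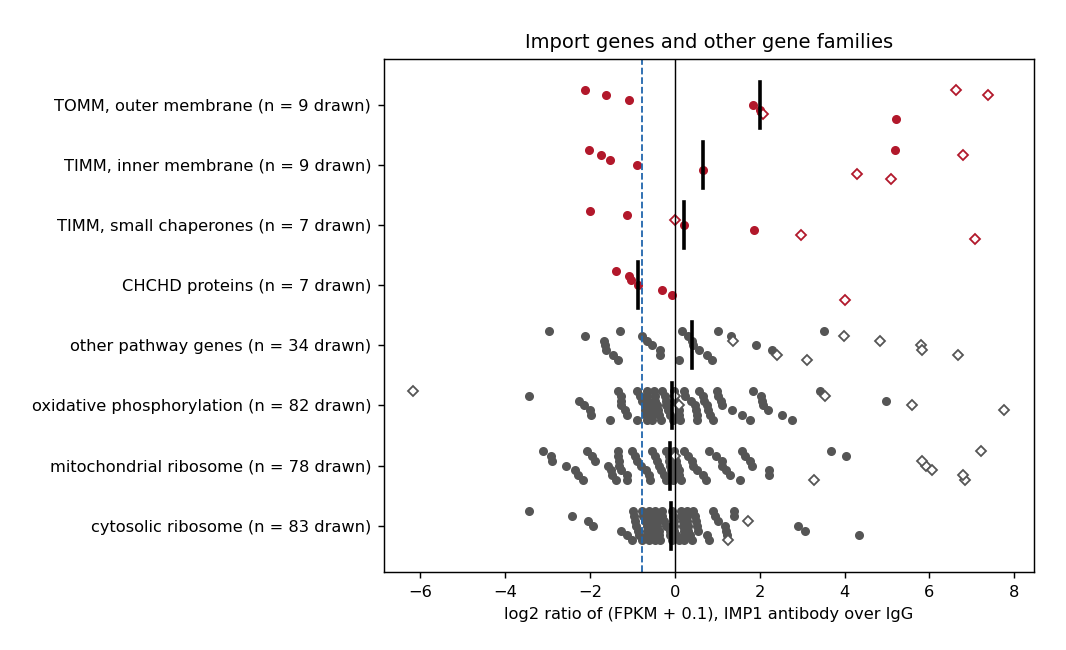
Log2 ratio of FPKM + 0.1 for import genes (red), for other genes of the pathway and for 3 other gene families (grey), with open diamonds for genes listed at 0 in a library, black bars for medians and a dashed line at -0.78. The 84 cytosolic ribosomal protein genes have a median of -0.09. Of them 65 lie within 2-fold, against 9 of the 36 import records and 5683 of all 18781 genes. For the cytosolic ribosome 83 of the 84 genes are drawn and the bar is the median of the 84.

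Other genes of the pathway were looked at by role. Of 34 such genes, 13 were at least 2-fold higher with the IMP1 antibody and 8 at least 2-fold lower, or 38.2% and 23.5%, with a median log2 ratio of 0.41, and of -0.12 over the 26 above 0 in both. Over all genes the shares were 39.9% and 29.9%, and the same medians were 0.40 and -0.72.

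The presequence motor on the matrix side was split. HSPA9, the mitochondrial Hsp70 that drives the motor, had 15.5 and 122 FPKM, a log2 ratio of -2.97, the lowest of these 34 genes. GRPEL2, a nucleotide exchange factor of HSPA9, had 2.87 and 12.8 FPKM, a log2 ratio of -2.12. Its paralog GRPEL1 had 10.5 and 8.42 FPKM, a log2 ratio of 0.31. ROMO1, a small protein of the TIM23 complex, had 38.5 and 3.28 FPKM, a log2 ratio of 3.52. PAM16, which regulates the motor, had 10.2 FPKM with the IMP1 antibody and was listed at 0 with IgG.

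Of the 7 processing peptidase genes 5 were at least 2-fold higher and none at least 2-fold lower, where 39.9% of all genes were higher, and 3 of the 5 were listed at 0 with IgG, as 38.7% of all genes were. PMPCB, the catalytic subunit of the presequence peptidase, had 5.06 and 0.948 FPKM, a log2 ratio of 2.30. Its partner PMPCA had 5.56 and 2.97 FPKM, a log2 ratio of 0.88. PITRM1, which degrades cleaved presequences, had 4.92 and 2.39 FPKM, a log2 ratio of 1.01. The 3 genes listed at 0 with IgG were IMMP1L at 5.55 FPKM, MIPEP at 0.761 FPKM and IMMP2L at 0.159 FPKM. Their levels are low, with 5.56 FPKM as the highest, and XPNPEP3 had 3.52 and 4.55 FPKM.

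GFER, which reoxidises CHCHD4, had 5.47 FPKM with the IMP1 antibody and was listed at 0 with IgG, as were AIFM1 at 2.75 FPKM, which binds CHCHD4, COX19 at 0.432 FPKM and APOOL at 1.49 FPKM. Of the 34 pathway genes 8 were listed at 0 with IgG, or 23.5%, against 38.7% of all genes. OXA1L, the insertase for proteins exported from the matrix, had 14.5 and 5.72 FPKM, a log2 ratio of 1.33. MTX3, of the sorting and assembly machinery, had 2.39 and 0.560 FPKM, a log2 ratio of 1.92, while SAMM50, the core of that machinery, had 6.97 and 6.47 FPKM. MTX1 of the same machinery had 8.26 and 20.9 FPKM, a log2 ratio of -1.33. IMMT, the core subunit of MICOS, to which APOOL also belongs, had 3.59 and 10.0 FPKM, a log2 ratio of -1.45. Among the chaperones DNAJA1, which helps Hsp70 in the cytosol, had 11.1 and 35.7 FPKM, a log2 ratio of -1.67, the third lowest of the 34. HSP90AA1, a cytosolic chaperone, and HSPE1, the cochaperone of the matrix chaperonin, had log2 ratios of -1.63 and -1.64. The other chaperone genes lay within 2-fold. HSPA8 was the highest, with 332 and 248 FPKM, a log2 ratio of 0.42, and HSPD1 had 23.2 and 33.9 FPKM, a log2 ratio of -0.55. Thus 3 of the 5 chaperone genes were at least 2-fold lower, where 29.9% of all genes were. DNAJC15, a relative of the motor regulator DNAJC19, had 2.07 and 5.19 FPKM, a log2 ratio of -1.28.

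The mRNAs of other large assemblies are given as a comparison. Of 84 cytosolic ribosomal protein genes, 11 were at least 2-fold higher and 8 at least 2-fold lower, with a median log2 ratio of -0.09. Of 82 genes named for nuclear subunits of oxidative phosphorylation, 18 were higher and 13 lower, with a median of -0.08. Of 78 mitochondrial ribosomal protein genes, 20 were higher and 22 lower, with a median of -0.11. The import records had 75.0% past 2-fold, near the 69.7% of all genes, and these families 22.6%, 37.8% and 53.8%, but levels differed as well. Listed at 0 with IgG were 30.6% of the import records and 2.38%, 6.10% and 10.3% of these families in the same order. The median level was 280 FPKM for cytosolic ribosomal proteins, 35.3 FPKM for oxidative phosphorylation, 11.5 FPKM for mitochondrial ribosomal proteins and 9.22 FPKM for the import records in the IMP1 library, and the share past 2-fold ran in the opposite order. The part of level in this spread was not tested.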

How the data were processed

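RNA from 1 IMP1 antibody precipitate and 1 control IgG precipitate of T47D cells was compared. The deposited table gives a normalized level in FPKM, made by the authors, for every gene and library, and writes an exact 0 as 1e-05, which was set back to 0 here. The submitters' processing notes name the build hg19. The aligner, the quantifier and the annotation are not given in the sources used here. The table also holds the authors' fold change, p-value and q-value, which were not used, nor were their lists of called genes. Starts count from 0, so 1 was added. A position can span several genes, and 18 of the 36 import records share theirs with another record.

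The members and lists were chosen with earlier results of these data known. Named were all members that are no pseudogene and the pseudogenes listed, the other pathway genes at least 2-fold higher, the 3 lowest of them at 1 FPKM or more in each library, and partners of these and the other lower pathway genes, chosen after their values were seen. The counts and medians were repeated with pseudocounts of 1 and 0.01, after filtering low genes, after rescaling the IMP1 values and at 4-fold. Depth is unknown, since FPKM keep no read counts, so no counting interval is given. Protein lengths and cysteine motifs were not used here. The counting was tested on simulated data with planted changes and little noise. These data lacked the zeros found with IgG alone and the scale difference, so they check the arithmetic only. Python 3.11.15, numpy 2.4.6, pandas 2.3.3 and matplotlib 3.10.9 were used.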

Additional observations from a re-analysis of the deposited data

How the results depend on the processing

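No paired analysis was possible because the result comes from no test. A single library per precipitate also left no replicate to leave out. Values were taken as moved when a count changed by over 1.5 times or a median by at least 0.1. The 15 members at least 2-fold higher became 5 among genes above 0 in both libraries and lay between 12 and 18 otherwise. The 12 members lower became 4 after rescaling to the median gene (a log2 shift of 0.79), 6 after rescaling to the sum without the 50 highest genes (0.57) and 4 at 4-fold. Over all genes the share higher was 39.9% at first, 17.5% above 0 in both, and 49.3% and 46.3% after the rescalings. The share lower, in the same order, was 29.9%, 43.8%, 21.3% and 23.5%. At 4-fold no share over all genes is given. The median log2 ratio of the outer membrane, 1.996, was 1.12 with a pseudocount of 1, 0.39 above 0 in both, and 2.72 and 2.53 after the rescalings in the order above. That of the inner membrane, 0.65, turned to -1.22 above 0 in both, and was 1.44 and 1.22 after the rescalings and 2.47 without TIMMDC1. That of the intermembrane space, -0.19, was -0.30 where a library reached 0.5 FPKM and -0.95 above 0 in both, turned to 0.24 and 0.13 after the rescalings, and was 0.20 for small TIM chaperones alone and -0.86 for CHCHD proteins alone. Chosen after seeing the data, the median without the second TIMM10B record was -0.30, and that of the inner membrane with TIMM23 and TIMM23B added up was 0.063. Over all genes the median was 0.40 at first, 0.088 with a pseudocount of 1 and -0.21 where a library reached 0.5 FPKM. It was -0.72 above 0 in both, and 0.96 and 0.79 after the rescalings. The median of the intermembrane space lay below that of all genes before and after the rescalings. Of single members, CHCHD2 turned to 0.72 and 0.50 and CHCHD3 to 0.49 and 0.27 after the rescalings, and no other direction turned. The description by protein length and cysteine motifs was not run, as no protein sequences were used here.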

Other observations

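A few further genes belong to the family by their current names but are listed in the table under others, matched through their Ensembl identifiers. C19orf52, now TIMM29, a subunit of the TIM22 complex, had 1.62 FPKM with the IMP1 antibody and was listed at 0 with IgG, as TIMM22 was. Near the IMP1 level of TIMM22, 32.8% of genes were at 0 with IgG. The pseudogenes TOMM40P2, TOMM20P4 and TIMM17BP1 had 0.217, 0.312 and 0.182 FPKM with the IMP1 antibody, and all were listed at 0 with IgG. TIMMDC1-DT, a transcript divergent from TIMMDC1, had 0.288 FPKM and 0, while TIMMDC1 itself was lower with the IMP1 antibody. The levels of these renamed records are low, and 38.7% of all genes were listed at 0 with IgG.

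Some import genes share the position given in the table with neighbours whose levels differ from theirs. KIAA0586, beside TIMM9 and TOMM20L, had 0.784 FPKM with the IMP1 antibody and 15.7 FPKM with IgG, or a log2 ratio of -4.16. PVRL2, beside TOMM40, had 22.4 and 3.13 FPKM, a log2 ratio of 2.80. LMNB2, beside TIMM13, had 6.61 and 6.34 FPKM, a log2 ratio of 0.0597, where TIMM13 was listed at 0 with IgG. FRS3, beside TOMM6, had 0.911 and 15.0 FPKM, a log2 ratio of -3.90. ADK, beside TIMM9P1, had 4.64 and 22.2 FPKM, a log2 ratio of -2.24. These neighbours were chosen after their values were seen.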
